A study of Mus musculus with 6 samples.

Results

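The aryl hydrocarbon receptor (AHR) pathway was followed through 6 genes, Ahr, Arnt, Ahrr, Tiparp, Cyp1a1 and Cyp1b1, among 23366 genes listed. They were selected on the measured difference of Cyp1b1, which was much higher after YAP siRNA, and the other 5 were added as its pathway. The comparison of YAP siRNA with control siRNA therefore describes these 6 genes and does not test them. The cells were SC4, a mouse Schwann cell line that came from a schwannoma, a nerve sheath tumour, and that lacks Nf2, the gene of the tumour suppressor merlin, in both groups. In each group 3 libraries were made 48 hours after transfection, from cells given a control siRNA or a Smartpool of siRNAs against YAP, the transcriptional co-activator encoded by Yap1. All libraries came from this 1 cell line. Whether the 3 libraries of a group were separate cultures is not in the labels, so the errors and p-values cover variation between these libraries alone, and it may be technical.

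AHR is a ligand-activated transcription factor of the bHLH-PAS family. Without a ligand it is held in the cytoplasm by HSP90 and p23. Bound to a dioxin, a polycyclic aromatic compound or a tryptophan metabolite, it enters the nucleus, pairs with ARNT and binds a DNA element with the core GCGTG. Its classical targets are the cytochrome P450 genes Cyp1a1 and Cyp1b1, which encode enzymes that oxidise aromatic compounds and oestrogens, and the feedback inhibitors Ahrr and Tiparp. The AHR repressor encoded by Ahrr competes with AHR for ARNT, and TIPARP, also named PARP7, attaches ADP-ribose to AHR and lowers its activity.

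The stretches before the transcription starts of the 4 target genes are shown because these are genes of one regulator whose RNA levels went opposite ways. RefSeq gave a promoter for 5 of the 6 genes on build GRCm38.p6, another build than the mm9 named in the submitters' processing notes, so these positions serve the sequences only. Each sequence is the 250 bases before the annotated start, 5′ to 3′ on the strand of the gene, and capitals mark the core GCGTG or its reverse complement CACGC. Cyp1b1 lies at chr17:79715062-79715311 on the minus strand, Cyp1a1 at chr9:57697363-57697612 on the plus strand, Ahrr at chr13:74292332-74292581 on the minus strand and Tiparp at chr3:65528197-65528446 on the plus strand.
Cyp1b1: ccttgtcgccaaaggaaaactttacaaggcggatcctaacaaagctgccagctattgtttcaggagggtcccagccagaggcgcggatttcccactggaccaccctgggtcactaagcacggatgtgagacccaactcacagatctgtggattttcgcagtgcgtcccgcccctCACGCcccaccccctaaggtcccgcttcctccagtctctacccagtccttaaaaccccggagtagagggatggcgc
Cyp1a1: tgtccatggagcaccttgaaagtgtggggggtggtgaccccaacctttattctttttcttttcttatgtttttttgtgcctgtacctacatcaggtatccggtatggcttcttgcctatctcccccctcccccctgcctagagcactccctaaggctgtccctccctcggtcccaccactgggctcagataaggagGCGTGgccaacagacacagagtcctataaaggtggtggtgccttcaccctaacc
Ahrr: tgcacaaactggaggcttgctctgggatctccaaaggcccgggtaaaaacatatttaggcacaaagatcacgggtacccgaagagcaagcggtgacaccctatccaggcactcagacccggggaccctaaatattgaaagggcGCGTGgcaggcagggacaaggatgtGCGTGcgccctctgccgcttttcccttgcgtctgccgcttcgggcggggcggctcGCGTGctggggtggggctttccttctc
Tiparp: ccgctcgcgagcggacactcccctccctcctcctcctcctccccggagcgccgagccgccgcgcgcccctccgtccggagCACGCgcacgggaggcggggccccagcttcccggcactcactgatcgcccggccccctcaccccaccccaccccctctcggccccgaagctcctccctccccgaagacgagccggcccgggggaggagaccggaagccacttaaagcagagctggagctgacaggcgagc

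The core motif was found, on either strand, in the promoters of Cyp1b1, Cyp1a1, Ahrr, Tiparp and Arnt. Of all 32851 promoters in the RefSeq table, 28.2% held it in a window of the same length. Ahrr had 3 matches, beginning 107, 82 and 27 bases before the start, all on the strand of the gene. Cyp1b1 had 1 match, on the other strand, at 76 bases before the start, and Cyp1a1 had 1, on its own strand, at 54 bases. The longer form TNGCGTG, which contains the core, was present in 4.1% of all promoters and, among these genes, in that of Ahrr. The TEAD motif GGAATG, through which YAP is known to act, was present in 12.6% of all promoters and in none of the 5 searched. A match is a run of letters in this window and not a measured binding site.

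**Figure D1:**
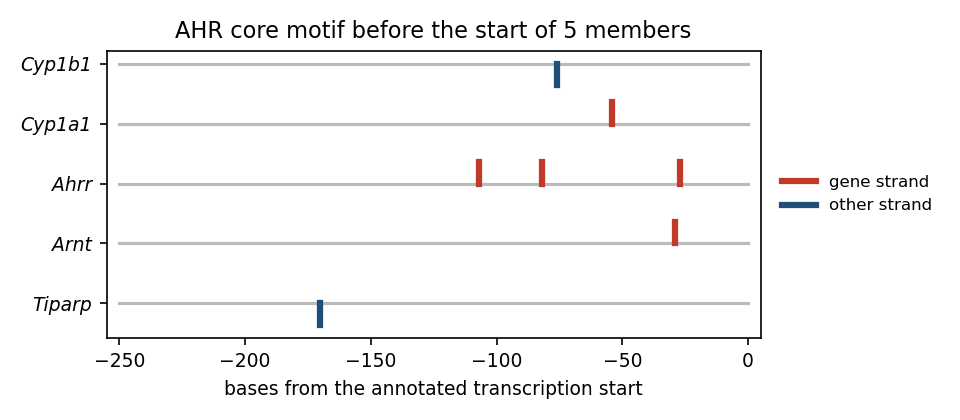
Matches to the AHR core motif in the 250 bases before the annotated start of 5 genes; the x axis is the distance from the start in bases, red ticks are matches on the strand of the gene and blue ticks on the other strand. Ahrr has 3 matches and each other gene has 1.

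Values are the normalized counts that the authors deposited, which are reads per gene over the size factor of the library. The libraries held between 18025132 and 60078880 reads in genes. Yap1 was at 13.0% of its control mean after YAP siRNA. Of 10 Schwann lineage markers 7 had a mean of at least 10 normalized counts, among them Ncam1, Mbp and Ngfr, whereas of those below it Sox10 (0 to 15.6) and S100b (4.55 to 18.7) were near 0. Of 5 fibroblast markers, Col1a1 was at 90209.6 to 280123 and Pdgfra at 6147 to 10360 normalized counts, Dcn at 13.2 to 207 and Thy1 at 15.2 to 193, and Lum was near 0 (0 to 4.15). Their summed level was 111188 to 288926 in the controls and 97028 to 191934 after YAP siRNA. The summed level of 5 macrophage markers was 284 to 322 in the controls and 193 to 252 after YAP siRNA, with Emr1 and Itgam near 0, and that of 3 endothelial markers was 150.2 to 235 and 186 to 271. The summed level of 4 epithelial markers, mostly Krt18 and Krt8, was 267 to 498 in the controls and 79.3 to 93.4 after YAP siRNA, with Cdh1 at 0 to 6.01. The part of these markers in the results was not tested. Replicate 1 of both groups stood apart from replicates 2 and 3, so differences are also given within each same-numbered pair. The values do not tell replicates 2 and 3 apart as pairs, so those pairs rest on the replicate number alone.

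Cyp1b1 encodes the CYP1 enzyme of mesenchymal tissues. Its normalized counts were 217, 474 and 364 in control replicates 1, 2 and 3, and 617, 2815 and 2714 in YAP siRNA replicates 1, 2 and 3. Each YAP siRNA library was above every control library, replicate 1 by the smallest margin. The mean of 3 was 351 ± 129 with control siRNA and 2048 ± 1241 with YAP siRNA (± SD), a ratio of 5.83. The log2 fold change, on the log2(value + 1) scale used throughout, was 2.32, with an SE of 0.639 without and 0.234 with a block for the replicate number (the paired fit), and it ranked 25 among the rises of 12820 genes tested. Within pairs YAP siRNA was 2.84-fold above control in replicate 1, 5.94-fold in replicate 2 and 7.47-fold in replicate 3. The level in replicate 1 was 51.8% of the mean of replicates 2 and 3 in the controls and 22.3% after YAP siRNA, so replicate 1 was the low library of both groups. Without YAP siRNA replicate 1 the log2 fold change was 3.04.

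Cyp1a1, another CYP1 gene under AHR control, was close to the limit of detection. Reads could be recovered as whole numbers, and the controls held 3, 3 and 22 reads of Cyp1a1 while each YAP siRNA library held 0. In normalized counts the controls were at 4.55, 2.34 and 10.1. Over a group, 28 of 114485215 control reads stood against 0 of 68298757, a count that allows up to 3 reads. With 3 reads put in place of the 0, Cyp1a1 was 5.57-fold lower after YAP siRNA. This fold takes the control count as exact and leaves out the spread between libraries, so it is not a strict lower bound. Control replicate 3, the most deeply sequenced library, held most of the control reads. Without it 6 control reads remained and the fold was 2.51. The fold was 3.67 without YAP siRNA replicate 1 and 3.37 without YAP siRNA replicate 2. With a mean under 10 normalized counts, Cyp1a1 did not enter the fits.

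The receptor gene itself was lower after YAP siRNA. Ahr had 961, 1110.0 and 1278 normalized counts in control replicates 1, 2 and 3, and 466, 585 and 615 after YAP siRNA. The groups did not overlap. The mean went from 1116 ± 159 to 556 ± 78.6 (SD, n = 3), which is 49.8% of control, and the log2 fold change was −1.01 (SE 0.188 without and 0.116 with the block). The same-numbered pairs were at 48.6%, 52.7% and 48.1% of control in replicates 1, 2 and 3.

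Arnt, the obligate partner of AHR and of the hypoxia-inducible factors, showed no shared direction. It had 3753, 2753 and 2699.6 normalized counts with control siRNA, against 3097, 3258 and 3385 with YAP siRNA. The YAP siRNA libraries lay within the range of the controls, where replicate 1 was the highest. The log2 fold change was 0.097, and its 95% interval in the paired fit ran from −0.19 to 0.38. Within pairs the difference was −0.28 in replicate 1 and 0.24 and 0.33 in replicates 2 and 3.

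Of the feedback inhibitors, Ahrr differed more than Tiparp. It had 241, 889 and 844 normalized counts with control siRNA, against 73.3, 148 and 170.3 with YAP siRNA. Every YAP siRNA library was below every control library, although control replicate 1 was at 27.9% of the mean of control replicates 2 and 3. The means were 658 ± 361 and 131 ± 50.8 (SD, n = 3), so that 19.9% of the control level was left, and the log2 fold change was −2.19 (SE 0.592 without and 0.202 with the block). By pairs 30.4%, 16.7% and 20.2% of control remained in replicates 1, 2 and 3. Without control replicate 1 the log2 fold change of Ahrr was −2.81.

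Tiparp differed less. Its normalized counts were 4791, 6808 and 6091 with control siRNA, against 4329, 4691 and 4694 with YAP siRNA. The groups did not overlap, but control replicate 1 lay just above the YAP siRNA libraries. The means were 5897 ± 1023 and 4571 ± 210.0 (SD, n = 3), 77.5% of control, with a log2 fold change of −0.35 (SE 0.160 without and 0.0989 with the block). The pairs were at 90.4%, 68.9% and 77.1% of control. At its 5′ end Tiparp overlaps the pseudogene 4931440P22Rik on the opposite strand over 970 bases, and the strand setting of the counting is not given in the sources used here; 4931440P22Rik was at 13.2 to 31.3 normalized counts. Ahr likewise overlaps the opposite-strand lincRNA gene Gm48236 over 618 bases, and the processed pseudogene Gm42672 lies within Arnt. Neither Gm48236 nor Gm42672 was among the genes listed. With these overlaps a share of reads of Tiparp, Ahr and Arnt may be uncertain, but whether any counted read was affected was not tested.

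**Figure D2:**
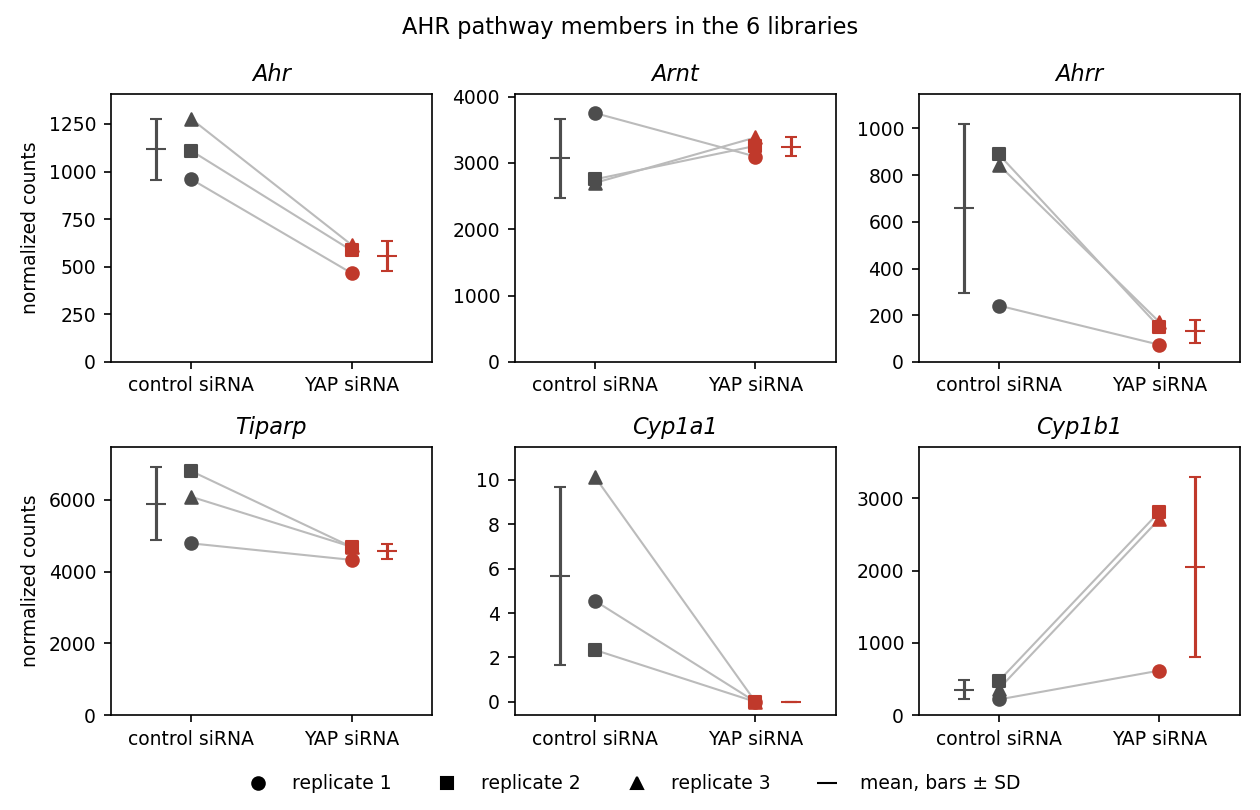
Normalized counts of the 6 genes in each library (y axis, from 0; grey control siRNA, red YAP siRNA), with lines joining same-numbered replicates and, at the sides, the mean ± SD of 3 libraries. Cyp1b1 is higher in every YAP siRNA library, Ahr, Ahrr, Tiparp and Cyp1a1 are lower in every one, and Arnt overlaps.

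Across the 6 genes, 5 had groups that did not overlap, Cyp1b1 with YAP siRNA higher and Ahr, Ahrr, Tiparp and Cyp1a1 with it lower. Where groups do not overlap all pairs share the direction, so the pairs add no second count. Among the 12820 genes tested, which leave out Cyp1a1, groups did not overlap in 9.47% with YAP siRNA higher and in 9.49% with it lower. At an adjusted p under 0.05, limma without the block called 0 of the 5 members tested and 0% of all genes in either direction. In the paired fit it called Cyp1b1 higher, against 8.32% of all genes, and Ahr, Ahrr and Tiparp lower, against 8.96%. Since Cyp1b1 was chosen for this difference and its pathway was listed with it, nothing is read from these counts. Without a mean-variance trend the blocked fit called none of them. It did not call Tiparp without replicate 2 or without replicate 3 of both groups, or with libraries rescaled to one total.

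**Figure D3:**
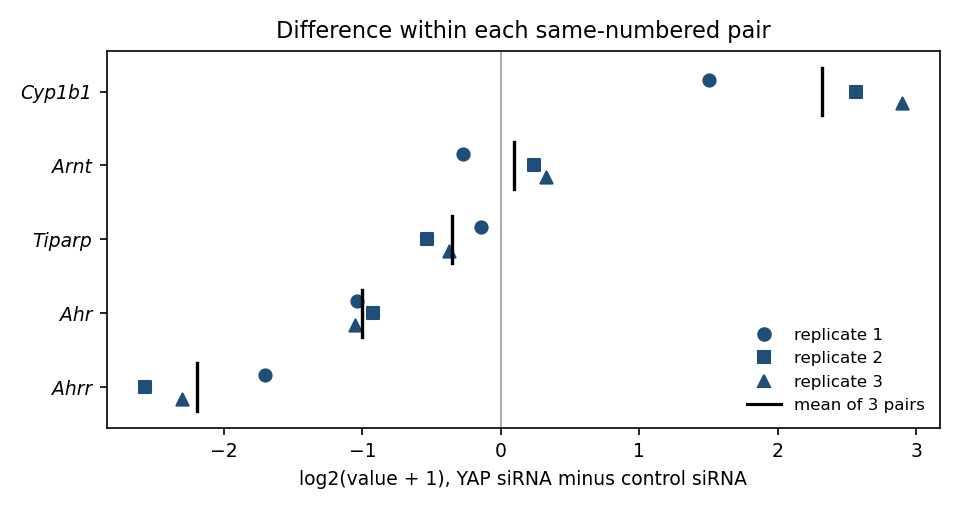
Difference of log2(value + 1) between YAP siRNA and control siRNA within each same-numbered pair of libraries (x axis), for the 5 members with a mean of at least 10 normalized counts; the black line is the mean of 3 pairs. All 3 pairs of Cyp1b1 lie above 0, all of Tiparp, Ahr and Ahrr below 0, and Arnt lies on both sides.

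Levels of different genes were compared per kilobase of annotated exon. In the controls Tiparp was the most abundant, at 1099 to 1562 normalized counts per kb, followed by Arnt at 337 to 469 and Ahr at 156 to 207, with no overlap between these neighbours. Ahrr (25.6 to 94.1) and Cyp1b1 (37.2 to 81.2) overlapped, and Cyp1a1 was lowest at 0.839 to 3.64. After YAP siRNA Tiparp was at 993 to 1077 and Arnt at 387 to 423 normalized counts per kb. Cyp1b1 was then at 106 to 482, which overlaps Arnt and lies above each Ahr library (75.7 to 99.8) and each Ahrr library (7.77 to 18.0). Cyp1b1 thus went from below Ahr in every control library to above it in every YAP siRNA library.

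**Figure D4:**
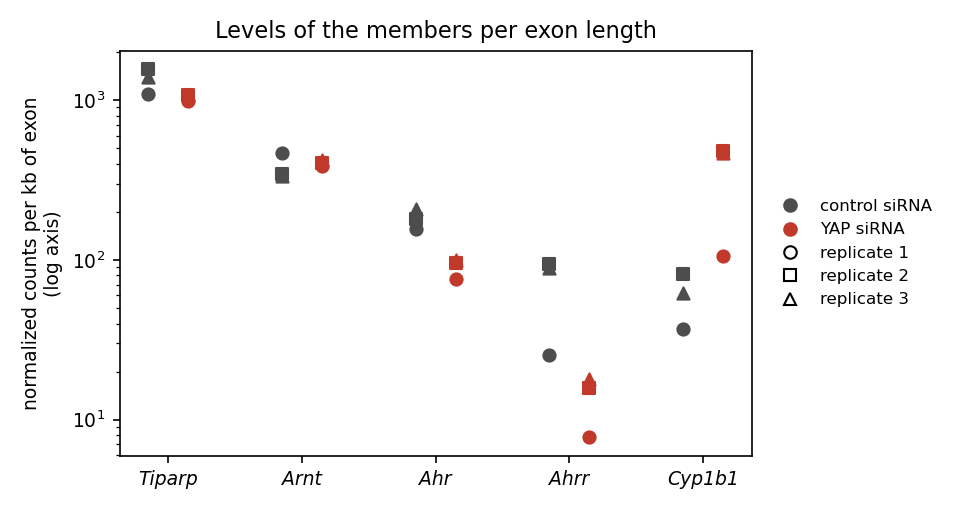
Normalized counts per kb of annotated exon (log axis) of 5 members in each library, grey for control siRNA and red for YAP siRNA, with the symbol giving the replicate. Cyp1b1 lies below Ahr in the controls and above it after YAP siRNA; Cyp1a1, at 0 after YAP siRNA, is not drawn.

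The genes whose profile over the 6 libraries was most like that of Cyp1b1 were Vgll3, Crebrf, Hrct1, Clic5 and Rhobtb1, with Pearson correlations of log2 values of 0.994 to 0.997 among 11224 other genes with a mean of at least 50. Vgll3, which encodes a TEAD cofactor, had the highest correlation of them. Its normalized counts were 719, 1091 and 1049 in control replicates 1, 2 and 3, and 1332, 3063 and 3327 after YAP siRNA. These profiles share the low replicate 1 as well as the difference between the groups. They were taken from the top of a ranking over 6 libraries, and a link of Cyp1b1 to TEAD was not tested. Of the other members, Arnt had a correlation of 0.14 with Cyp1b1, Tiparp −0.39, Ahrr −0.44 and Ahr −0.63, as a description over 6 libraries.

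The genes around the pathway were counted in 7 lists of 85 genes, all of which were in the table and 67 of which passed the filter. Without the block limma called 0 of them. With it 7 were higher and 6 lower, or 10.4% and 8.96% of the genes tested, close to the 8.32% and 8.96% of all genes. Their median log2 fold change was 0.095, against 0.0094 over all genes tested. Below, "rose" and "fell" are used for genes that passed in the blocked fit, and each such gene missed the threshold in limma without the block.

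Of the 13 chaperones and coactivators of the receptor, all tested, 0 were called higher and 1 lower, with a median log2 fold change of 0.056. The coactivator gene Ncoa1 fell, at 1279 ± 304 normalized counts in 3 control and 848 ± 93.4 in 3 YAP siRNA libraries (± SD). Its log2 fold change was −0.57 (SE 0.125; paired limma adjusted p = 0.0187, unpaired 0.382). Hsp90aa1 had 6053, 157 and 441 normalized counts in control replicates 1, 2 and 3, and 6196, 199 and 378 after YAP siRNA. Replicate 1 of both groups was thus far above the others for this chaperone gene, as it was for Ptges3, the p23 gene, at 3737 against 534 and 853 in the controls.

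Other bHLH-PAS factors, the family of AHR and ARNT, went both ways, with 3 higher and 2 lower of 8 tested and a median log2 fold change of 0.41. These were 37.5% and 25% of the 8, beside 8.32% and 8.96% of all genes in that fit. The counts were 2 and 1 without replicate 2 of both groups, and 0 and 0 with the block and no mean-variance trend. Whether these shares exceed those of all genes was not tested. Arnt2, a paralogue of Arnt, rose from 592, 643 and 620 to 1140, 1397 and 1275 normalized counts in replicates 1, 2 and 3 (log2 fold change 1.03, SE 0.113; paired limma adjusted p = 0.00181, unpaired 0.123). Npas2, which encodes a CLOCK paralogue, rose from 68.8 ± 32.3 to 243 ± 98.0 and Clock fell from 7247 ± 2555 to 3592 ± 1235 normalized counts (mean ± SD of 3). Their log2 fold changes were 1.82 and −1.01, with paired limma adjusted p of 0.00237 and 0.00121. The 3 controls and 3 YAP siRNA libraries did not overlap for any of these 3 genes. Epas1, which encodes HIF-2alpha, fell, with a difference of −0.93 on the log2 scale (paired limma adjusted p = 0.0214); its values ranged from 376 to 3791 in the controls, replicate 1 being the low one, and overlapped with YAP siRNA. Arntl, the partner of CLOCK, rose by 0.65 (paired limma adjusted p = 0.00966) and was named after its value was seen. It lost its call without replicate 2 of both groups (paired limma adjusted p = 0.127). For Hif1a the log2 fold change was 0.043, with a paired 95% interval from −0.15 to 0.24.

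Target genes of AHR in other tissues did not share a direction. Outside the members 1 was higher and 2 were lower of 14 tested, with a median log2 fold change of −0.14. Xdh, the xanthine dehydrogenase gene, rose from 346, 829 and 805 to 621, 1530 and 1371 normalized counts in replicates 1, 2 and 3 (log2 fold change 0.83, SE 0.114; paired limma adjusted p = 0.00368, unpaired 0.553). Xdh was higher within each pair although the groups overlapped. The aldehyde dehydrogenase gene Aldh3a1 fell, at −0.57 on the log2 scale, as did Ereg, an EGF receptor ligand gene, at −0.90 (paired limma adjusted p = 0.0407 and 0.0136). Nqo1, a quinone reductase gene, had 839 ± 10.8 normalized counts with control siRNA and 1082 ± 119 with YAP siRNA (mean ± SD of 3; paired limma adjusted p = 0.0696). Its groups did not overlap, yet the call was not made.

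Enzymes that work with or after the CYP1 enzymes held 1 higher and 1 lower gene of 10 tested, with a median log2 fold change of −0.057. Por, which encodes the reductase that hands electrons to microsomal P450 enzymes, fell from 6085, 8327 and 9404 to 4334, 5648 and 6039 normalized counts in replicates 1, 2 and 3 (log2 fold change −0.56, SE 0.0836; paired limma adjusted p = 0.0051, unpaired 0.361). The highest YAP siRNA library of Por was just below the lowest control. The glutathione transferase gene Gstm1 rose by 1.02 on the log2 scale (paired limma adjusted p = 0.0316), with replicate 1 well above the others in both groups.

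Genes for tryptophan and kynurenine enzymes, a pathway in which some steps make AHR ligands, were mostly silent. Whether ligand levels differed was not tested. Of 10 genes 5 were at 0 reads in all libraries, Tdo2, Il4i1, Kmo, Kynu and Haao, and of the 2 tested none was called; Afmid had 275 ± 8.63 normalized counts with control siRNA and 239 ± 50.4 with YAP siRNA (mean ± SD of 3). Ido1 and Ido2 were at 0 to 16.1 normalized counts. Among 5 other known regulators of Cyp1b1, the oestrogen receptor gene Esr1 rose from 64.7 ± 8.69 to 137 ± 39.5 normalized counts (mean ± SD of 3), and 0 were lower. The log2 fold change of Esr1 had an SE of 0.288 (paired limma adjusted p = 0.0414, unpaired 0.275). Esr1 was not called when no gene was filtered out. In the PARP family, outside Tiparp, 1 was higher and 0 were lower of 15 tested, with a median log2 fold change of 0.13. Parp14, which like Tiparp encodes a mono-ADP-ribosyltransferase, rose by 0.71 on the log2 scale (paired limma adjusted p = 0.0130).

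Beside Cyp1a1 and Cyp1b1, 100 other cytochrome P450 genes were listed, among them Cyp1a2 with 9 reads in total. Of the 100 genes, 55 were at 0 reads in all libraries, and 16 were tested. With the block 5 were higher and 0 lower, and the median log2 fold change was 0.14; without it limma called 0. The 5 genes were 31.25% of the 16, beside 8.32% of all genes called higher in that fit. Their number was 8, 1 and 3 without replicates 1, 2 and 3 of both groups in turn, and 0 with the block and no mean-variance trend. Cyp39a1, an oxysterol hydroxylase gene, rose from 63.7, 66.3 and 59.9 to 153, 187 and 223 normalized counts in replicates 1, 2 and 3 (log2 fold change 1.54, SE 0.236; paired limma adjusted p = 0.00551, unpaired 0.150). The control values of Cyp39a1 were close together and below every YAP siRNA library. Cyp26a1, whose product degrades retinoic acid, rose by 1.70, Cyp4v3 by 0.93 and Cyp2j6 by 0.67 on the log2 scale (paired limma adjusted p = 0.0168, 0.0115 and 0.0300). The groups of Cyp26a1 overlapped, with control replicate 3 at 44.7 and YAP siRNA replicate 1 at 42.1 normalized counts. Cyp2c55, named after its value was seen, was the other gene that rose, by 0.58 (paired limma adjusted p = 0.0314). It lost its call without replicate 2 of both groups (paired limma adjusted p = 0.261) and without replicate 3 of both groups (0.149). The sterol demethylase gene Cyp51 was the most abundant of the 16, and differed by 0.12 on the log2 scale (paired limma adjusted p = 0.416).

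**Figure D5:**
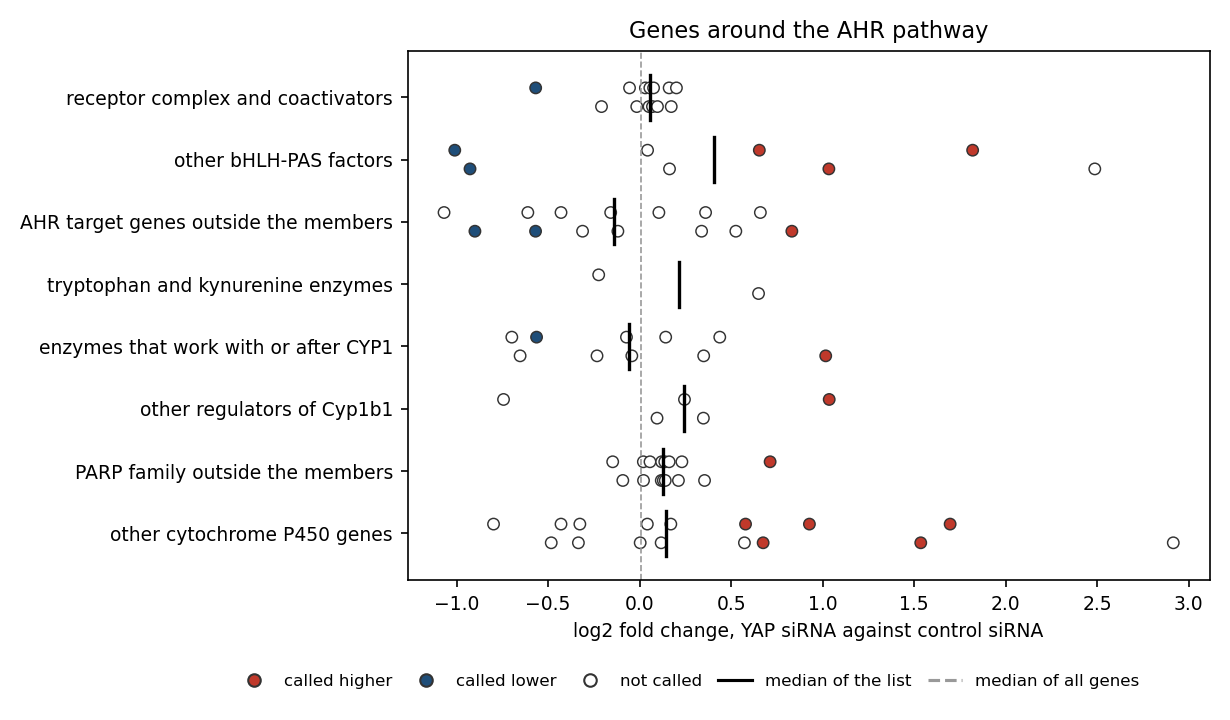
Log2 fold change of YAP siRNA against control siRNA (x axis) for each gene tested in 7 lists around the AHR pathway and among the other cytochrome P450 genes; red and blue mark calls in either direction in the paired fit (adjusted p under 0.05), white is not called, black lines are list medians and the dashed line is the median of all genes. The calls lie on both sides in the bHLH-PAS list and on the higher side among the other cytochrome P450 genes.

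Among the 16 genes named by rule from these lists and called in the paired fit, 12 were not called once replicate 2 of both groups was left out, Ncoa1, Epas1, Aldh3a1, Ereg, Xdh, Por, Gstm1, Esr1, Parp14, Cyp26a1, Cyp4v3 and Cyp2j6. Without replicate 3, Ncoa1, Aldh3a1, Esr1, Parp14 and Cyp2j6 lost it, and without replicate 1 none did. Npas2, Arnt2, Clock and Cyp39a1 kept theirs in each case, Cyp39a1 only just without replicate 2 of both groups (paired limma adjusted p = 0.0498). Control and YAP siRNA libraries overlapped for Ncoa1, Epas1, Aldh3a1, Xdh, Gstm1, Parp14 and Cyp26a1.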

How the data were processed

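Poly(A) RNA was fragmented and ligated to directional adapters, per the labels' protocols. The deposited values are a signal, made by the authors as reads per gene over the size factor of the library. TopHat2 2.0.9, HTSeq 0.6.1, DESeq 1.14.0 and build mm9 are named in the submitters' processing notes; no annotation, strand setting or filter is named there. All values above 0 (100% in each library) were whole multiples, within 0.01, of the value of 1 read, so read counts were recovered.

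Values were tested across all genes with a mean of at least 10 as log2(value + 1), in limma 3.58.1 (R 4.3.3, mean-variance trend, two-sided, Benjamini-Hochberg, threshold 0.05). The main fit had no covariate. Deviations from the group means correlated at 0.788, 0.705 and 0.532 for replicates 1, 2 and 3, so libraries of the same number were treated as pairs. Control replicate 2 with YAP siRNA replicate 3 gave 0.552 and control replicate 3 with YAP siRNA replicate 2 gave 0.516, so the values set replicate 1 apart but do not tell replicates 2 and 3 apart as pairs. The pairing comes from the data, not from a label, and a fit blocked on the replicate number, the paired fit, stands beside the main design. The members, the lists and the naming rule were chosen with earlier results of these data known. The rule named in each list up to 4 called genes with a mean of at least 50, by size of change, or the most abundant. Exon lengths came from GENCODE M21, promoters from RefSeq. Some genes of the lists are counted but not reported here by name. The fits were tested on simulated counts. Alternatives were other pseudocounts, filters, scaling and variance models, leaving out libraries, and 2 count tests of the recovered reads, edgeR 4.0.16 and DESeq2 1.42.0.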

Additional observations from a re-analysis of the deposited data

How the results depend on the processing

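The log2 fold changes of Cyp1b1, Ahr, Ahrr and Tiparp kept their direction under every alternative run, while that of Arnt was −0.017 with the block without replicate 3 of both groups. Leaving out 1 library moved those of Cyp1b1 and Ahrr by up to more than their SE without the block (0.639 and 0.592). Without 1 library in turn that of Cyp1b1 ranged from 1.95 to 3.04 and that of Ahrr from −2.81 to −1.83; without replicate 1 of both groups that of Cyp1b1 was 2.73. With 3 reads put in place of the 0 reads after YAP siRNA, the fold by which Cyp1a1 was lower ranged from 2.51 to 7.21 when 1 library was left out. Over all genes, limma without the block called 0 higher and 0 lower, with 1558 genes at an unadjusted p under 0.05; edgeR called 0 and 0, and DESeq2 330 and 399. With the block the counts were 1067 and 1149 in limma, 12 and 18 without a mean-variance trend, 1190 and 1289 in edgeR and 1182 and 1308 in DESeq2. Rescaling to one total with the block gave 1225 higher and 1027 lower. Leaving out 1 pair with the block gave 123 to 2804 higher and 177 to 2792 lower (538 and 590 without replicate 3), and leaving out 1 library without it 0 to 192 and 0 to 305. Without replicate 1 of both groups and without the block, a choice made after seeing the data, limma called 1912 and 2106. In the 7 lists the counts were 0 higher and 0 lower without the block, 7 and 6 with it, 4 and 1 in DESeq2 without it, and 0 and 0 with the block and no trend. Leaving out 1 pair with the block gave 2 to 18 higher and 1 to 10 lower, and leaving out 1 library without it 0 to 1 higher and 0 lower; without replicate 1 of both groups and without the block the counts were 12 and 10. With the block and no trend, the 16 genes named from the lists that were called lost their call. With few libraries left, p-values rest largely on variance borrowed from other genes. Depth limits Cyp1a1, which had 28 reads in the controls, 22 of them in 1 library.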
